A study of Homo sapiens with 6 samples.

Results

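Tensins are scaffold proteins of focal adhesions, and 10 genes were followed here: the 4 tensin genes TNS1, TNS2, TNS3 and TNS4, and 6 genes of the core adhesion plaque, VCL, ZYX, PXN, TLN1, FLNA and ACTN1. They were taken by name from a table of 60663 genes with values, and all 10 were among the 19836 genes that passed a filter on low counts. The choice of genes, and of TNS4 as the gene to set against the others, was made with the difference between the 2 groups of libraries already known. Values of that difference are therefore given as a description of the members, without a test. RNA was sequenced from 5637, an established human bladder cancer cell line, 48 h after transfection. Per the series description, both groups carried dCas13b-FTO. It joins an RNA-binding Cas13b without nuclease activity to FTO, an enzyme that removes the N6-methyladenosine mark from RNA. The sample titles name dCas13b without FTO, and the column names FTO. A control guide RNA was used for 3 libraries, and for 3 more a guide that targets HRAS, a small GTPase upstream of MAPK signalling. Whether replicates were grown as separate cultures is not stated in the labels, and p-values measure only the spread between these libraries, which may be technical.

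Focal adhesions are the sites where integrins, the transmembrane receptors for extracellular matrix, are linked to actin filaments. Talin binds and activates the integrin tail, vinculin reinforces the link under force, and filamin and alpha-actinin cross-link actin, while paxillin and zyxin act as adaptors. Tensins bind integrin tails through a PTB domain and phosphorylated partners through an SH2 domain. TNS4, also called cten, is the short tensin without the actin-binding region of the others. It is found mainly in epithelial cells and is known to be induced by growth factor signalling through EGFR.

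Libraries held 24968702 to 32283370 counts. The mean level of HRAS was 182 ± 43.7 CPM under the control guide and 183 ± 16.5 CPM under its own guide (SD, n = 3), a log2 fold change of 0.01 ± 0.15 (SE). CPM are counts scaled to library size, after TMM scaling for RNA composition. All 12 epithelial and urothelial markers were at or above 1 CPM, with summed levels of 10411 to 13693 CPM in control and 10652 to 12076 CPM in HRAS guide libraries. Of markers of other cell types, 4 of 8 fibroblast, 3 of 7 smooth muscle, 2 of 6 endothelial and 1 of 7 immune genes reached 1 CPM. Fibroblast sums ran from 177 to 239 CPM and from 164 to 211 CPM in the groups, smooth muscle from 17.5 to 21.7 and from 17.2 to 20.05, endothelial from 5.09 to 6.73 and from 4.60 to 5.52, and immune from 2.76 to 4.20 and from 3.31 to 5.02. The 1 immune gene that reached 1 CPM was CD14, at 2.59 to 4.78 CPM over the 6 libraries. Most of the fibroblast sum came from COL1A1, at 139 to 210 CPM. No listed marker was at 0 in all 6 libraries. The pan-leukocyte gene PTPRC was at 0 in all 3 control libraries and in HRAS guide replicate 2. It was under 0.1 CPM in HRAS guide replicates 1 and 3. The part of such RNA in the results was not tested. In a bulk library, fewer cells that make an RNA and less of it per cell cannot be told apart.

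Promoter sequence is shown for 4 members whose RefSeq window (GRCh38.p14, 250 bases before to 50 after a start) held a motif of the factor families that answer to MAPK and actin signalling in serum-stimulated cells, SRF and EGR. Of the 10 members, 9 had an entry, with 21 windows in all, and TNS4 had none. The stretches below were read 5′ to 3′ on the strand of the gene, with the motif in capitals, and lie outside exons of protein-coding genes in GENCODE 29. The EGR matches of ZYX and of another ACTN1 window overlap such exons and are not shown.
FLNA, CArG box 94 bases before the start, chrX:154374694-154374753, minus strand: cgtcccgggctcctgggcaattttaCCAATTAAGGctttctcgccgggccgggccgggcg
ACTN1, CArG box 171 bases before a start, chr14:68977703-68977762, minus strand: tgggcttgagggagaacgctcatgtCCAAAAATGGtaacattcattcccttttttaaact
PXN, EGR motif 145 bases before a start, chr12:120265842-120265900, minus strand: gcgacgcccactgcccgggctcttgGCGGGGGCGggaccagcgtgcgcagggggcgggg
TNS2, EGR motif 20 bases before a start, chr12:53047178-53047222, plus strand: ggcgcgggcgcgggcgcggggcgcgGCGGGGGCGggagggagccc

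A CArG box, the site bound by SRF, was found in 2 of the 21 windows, those of FLNA and ACTN1, and in 1.29% of all 35116 windows of the table. An EGR motif (GCGGGGGCG or GCGTGGGCG, either strand) was found in 4 of the 21, of TNS2, ZYX, PXN and ACTN1, and in 5.77% of all windows. ETS letters (GGAAGT) stood in 7 windows and 22.8% of all, TEAD letters (GGAATG) in 5 and 14% of all, and the N-box of HES factors (CACNAG) in 4 and 38% of all. The AP-1 letters TGANTCA and the E-box CACGTG were in 0 of the 21, and in 7.71% and 7.26% of all windows. Both strands were searched for each motif. EGR matches fall in windows rich in G and C, and the PXN window shown had a GC content of 81.3%, above 98.4% of all windows. These matches describe the letters in these windows only.

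Per length, the plaque genes and 2 of the tensins were among the more abundant mRNAs of these cells, and the other 2 tensins were scarce. Levels between genes were compared as RPKM, CPM divided by the kilobases of merged exons. FLNA, which encodes the actin cross-linker filamin A, led in the control libraries at 178, 233 and 190 RPKM. TNS4 came next at 81.7, 92.8 and 85.3 RPKM, above the zyxin gene ZYX at 58.2, 79.1 and 63.1 RPKM. Talin, TLN1, stood at 49.2 ± 1.29, TNS3 at 34.6 ± 1.48, alpha-actinin 1, ACTN1, at 29.9 ± 0.27, paxillin, PXN, at 26.5 ± 2.87 and vinculin, VCL, at 14.3 ± 2.60 RPKM (SD, n = 3). TNS2 was at 1.58 ± 0.37 RPKM and TNS1 at 0.46 ± 0.06 RPKM. Of the tested genes with a length, 98.1% lay below TNS4 in the control libraries, 93.8% below TNS3, 36.5% below TNS2 and 15.3% below TNS1.

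This order of the 10 genes was the same in each of the 6 libraries. ACTN1 and PXN were the closest pair: ACTN1 ran from 29.6 to 30.2 RPKM and PXN from 24.0 to 29.6 RPKM over the control libraries, so their ranges touched although ACTN1 was above PXN within every library. TNS4 and ZYX did not overlap within a group, at 62.7 to 68.7 RPKM against 54.0 to 61.8 RPKM with the HRAS guide. The order depends on the length that is used. With the median transcript length of each gene in place of merged exons, TNS4 stood in place 5, below FLNA, TLN1, TNS3 and ACTN1.

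**Figure D1:**
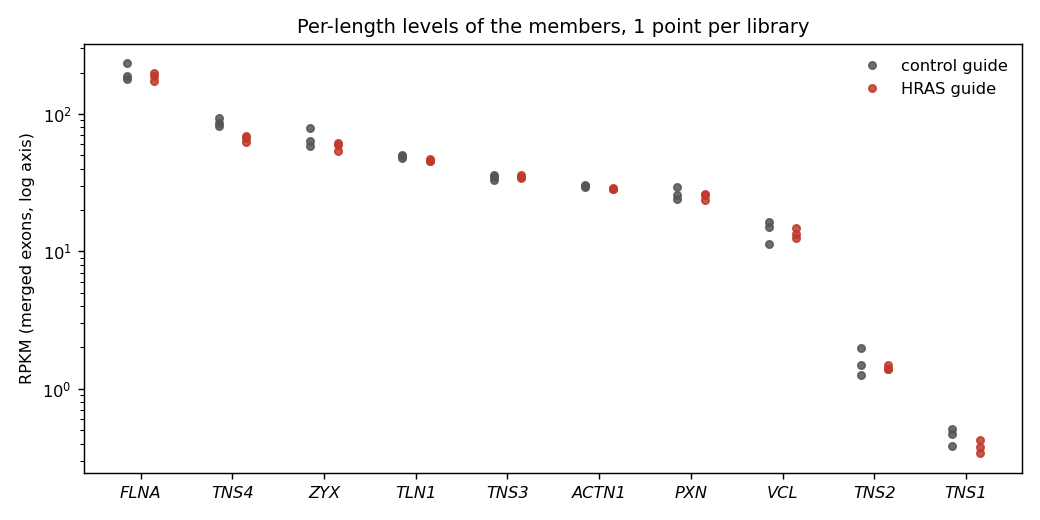
Per-length level (RPKM over merged exons, log axis) of each member in each library, with control guide libraries in grey and HRAS guide libraries in red. FLNA is highest and TNS1 lowest in all 6 libraries, and the TNS4 points of the HRAS guide libraries (62.7 to 68.7 RPKM) lie below those of the control libraries (81.7 to 92.8 RPKM).

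TNS4 (ENSG00000131746, GRCh38 chromosome 17, 40475828 to 40501597, minus strand) was lower in every HRAS guide library than in any control library. In the order of the replicate numbers, the control libraries held 396, 450 and 414 CPM. The HRAS guide libraries held 333, 304 and 325 CPM. These levels rest on 8292 to 12524 counts per library. The means were 420 ± 27.3 and 321 ± 14.9 CPM (SD, n = 3), a log2 fold change of -0.39 ± 0.08 (SE), with a 95% interval of -0.57 to -0.21, or 0.764 of the control level. TNS4 had the largest absolute fold change of the 10 members. Its annotated exons overlap no other gene, so its count does not depend on strand.

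The other tensins did not share this separation. TNS3 (ENSG00000136205, chromosome 7, 47275154 to 47582558) is a long tensin with an actin-binding region. It stood at 425, 390 and 408 CPM with the control guide and at 403, 423 and 411 CPM with the HRAS guide. The groups overlapped, and the log2 fold change was 0.02 ± 0.07 with an interval of -0.14 to 0.18.

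TNS2 (ENSG00000111077, chromosome 12, 53046969 to 53064372) was at 12.2, 16.1 and 10.2 CPM with the control guide and at 11.3, 11.3 and 12.1 CPM with the HRAS guide. Control replicate 2 was the highest and control replicate 3 the lowest of the 6 libraries, and the log2 fold change was -0.15 ± 0.16 (interval -0.51 to 0.20). Without control replicate 2 it was 0.05. TNS1 (ENSG00000079308, chromosome 2, 217799588 to 218033982), a long tensin, was at 6.25, 8.32 and 7.66 CPM and at 6.11, 6.96 and 5.52 CPM. Its log2 fold change was -0.26 ± 0.15, with an interval of -0.60 to 0.08. That interval holds the TNS4 value of -0.39, as do those of TNS2 and of the plaque gene ZYX (-0.45 to 0.06). TNS1 had the fewest counts of the members, 152 to 232 per library, and its groups overlapped.

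Among the plaque genes all 6 log2 fold changes were negative and small, from -0.20 to -0.07. TLN1 (ENSG00000137076, chromosome 9, 35696948 to 35732395), which encodes the integrin activator talin 1, stood at 509, 494 and 484 CPM in the control libraries. The HRAS guide libraries followed at 474, 455 and 460 CPM. Its groups did not overlap, and the log2 fold change was -0.10 ± 0.07 (interval -0.25 to 0.05). VCL (ENSG00000035403, chromosome 10, 73995193 to 74121363), encoding vinculin, ranged from 113 to 163 CPM with the control guide and from 126 to 148 CPM with the HRAS guide. The control libraries thus spanned the HRAS guide libraries, and the log2 fold change of -0.07 ± 0.13 turned to 0.03 without control replicate 1. Of the merged exons of VCL, 11.1% overlap AP3M1 on the opposite strand, and reads there cannot be assigned without strand.

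The actin cross-linkers differed in their spread. ACTN1 (ENSG00000072110, chromosome 14, 68874143 to 68979440) was the most even member, at 315, 320 and 319 CPM in control libraries, against 306, 299.9 and 302 CPM with the HRAS guide. The groups did not overlap, although the log2 fold change was only -0.07 ± 0.07 (interval -0.23 to 0.08). FLNA (ENSG00000196924, chromosome X, 154348524 to 154374638) stood at 1885, 2463 and 2013 CPM and at 2104, 1824 and 1989 CPM. Control replicate 2 was far above the others, the groups overlapped, and the log2 fold change of -0.10 ± 0.10 turned to 0.02 without that library.

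The adaptor ZYX (ENSG00000159840, chromosome 7, 143381080 to 143391111) was also highest in control replicate 2, at 275 CPM against 203 and 220 CPM in the other control libraries. The HRAS guide libraries stood at 215, 188 and 206 CPM, for a log2 fold change of -0.20 ± 0.12 (interval -0.45 to 0.06). It was -0.06 without control replicate 2. PXN (ENSG00000089159, chromosome 12, 120210439 to 120265771) was at 179, 221 and 193 CPM and at 196, 175 and 190 CPM, with -0.08 ± 0.10, and with 0.01 when control replicate 2 was left out. The antisense gene PXN-AS1 overlaps 12.3% of PXN exons, so its reads may be mixed in.

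**Figure D2:**
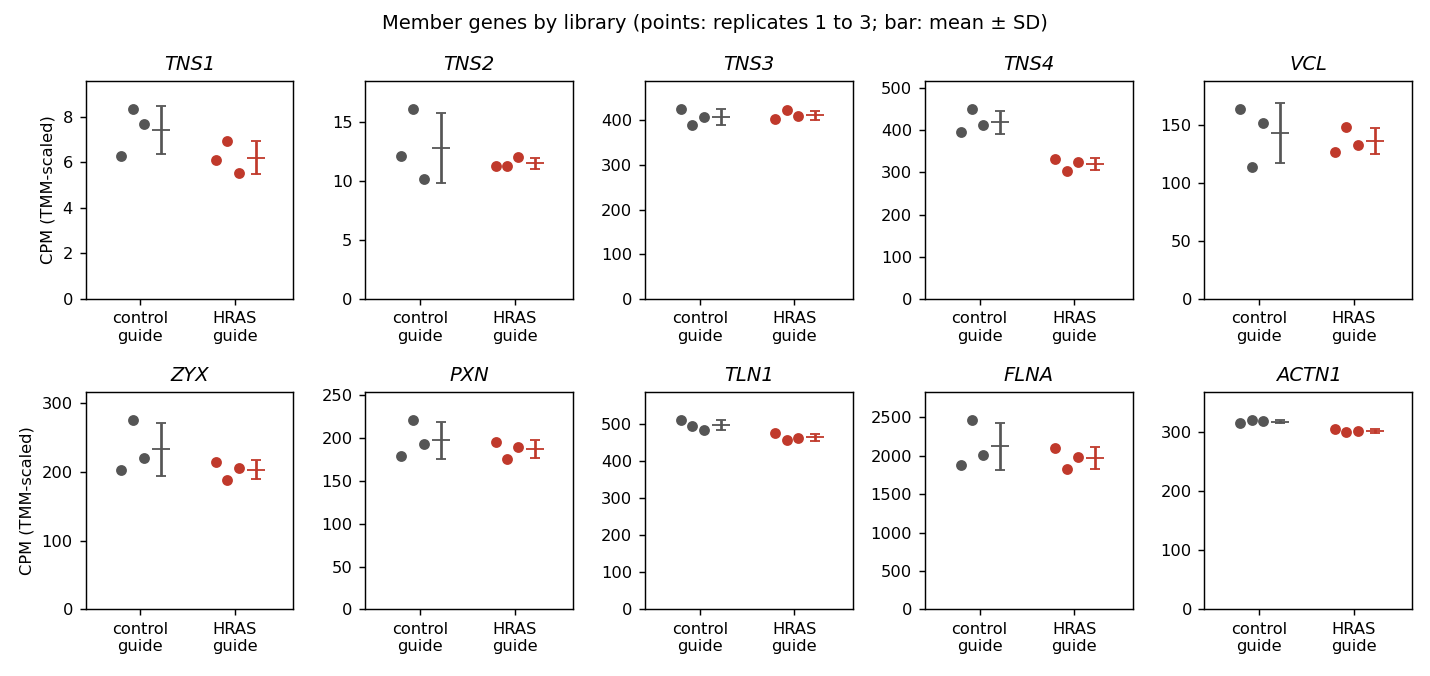
CPM of each member in each library (points, in replicate order from left to right), with the mean ± SD of each group beside them; every axis starts at 0. The TNS4 groups are apart by more than their spread, at 420 ± 27.3 and 321 ± 14.9 CPM, whereas TNS3, TNS2, VCL, PXN and FLNA overlap between the guides.

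Counted over the members, 9 of 10 log2 fold changes were negative (50.5% of all tested genes were), with a median of -0.10 against -0.0014 over all genes. By edgeR's quasi-likelihood test with adjustment over all genes, 0 of 10 members passed the 0.05 threshold, where 0.0101% of all genes did. At an unadjusted p under 0.05 there was 1 member, TNS4, against 3.34% of all genes (1.7% lower and 1.64% higher), and DESeq2 (0.144% of all genes called) and limma-voom (0.00504%) called 0 members each. The groups did not overlap, with the HRAS guide lower, for 3 members, TNS4, TLN1 and ACTN1, and for 4% of all genes. In the other direction it was 0 members and 4.81% of all genes. Since the members were chosen on this contrast, nothing is read from these counts.

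Differences within a library are free of its scaling. TNS4 minus the mean of the 6 plaque genes, in log2 CPM, was 0.19, 0.27 and 0.22 in the control libraries and -0.04, -0.10 and -0.05 in those with the HRAS guide. The groups were apart by -0.29, with SDs of 0.04 and 0.03. Set against TNS3 alone, the long tensin of like CPM, TNS4 was at -0.10, 0.21 and 0.02 and then at -0.27, -0.48 and -0.34, so that the groups did not overlap. Against the mean of the other 3 tensins the difference between the groups was -0.27, while against TNS1 (-0.13) and TNS2 (-0.26) the libraries overlapped. The mean of the other tensins relative to the plaque genes differed by -0.02, with SDs of 0.09 and 0.08.

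**Figure D3:**
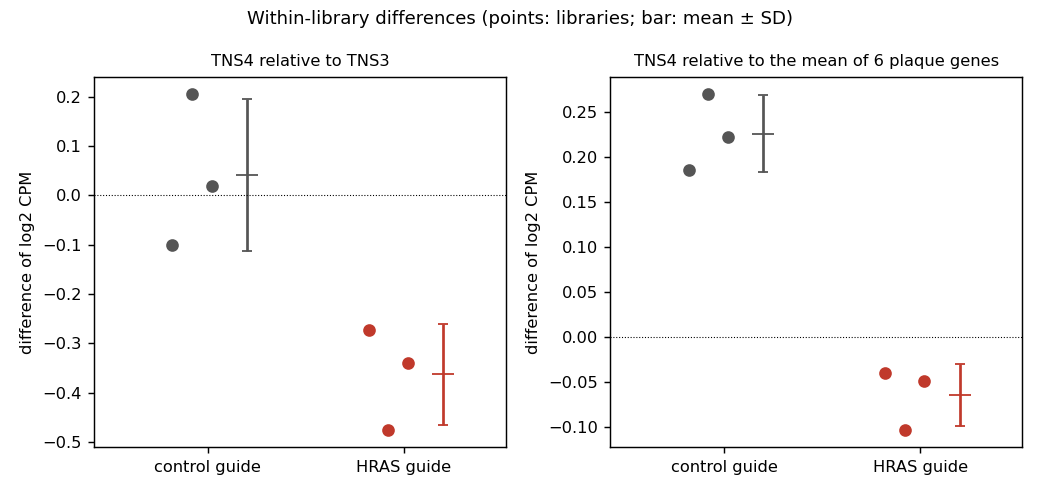
Difference of log2 CPM within each library (points) between TNS4 and TNS3 (left) and between TNS4 and the mean of the 6 plaque genes (right), with the mean ± SD of each group of 3. Control libraries sit at 0.19 to 0.27 above the plaque mean and HRAS guide libraries at -0.10 to -0.04.

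The spread of several members inside a group moved with the GC content of their transcripts. Each library has its own trend with GC content, in both groups. Across genes, Spearman's rank correlation of GC content with the deviation of log2 CPM from its mean over the libraries ranged from -0.49 in HRAS guide replicate 2 to 0.61 in control replicate 2. The 2 members of lowest median transcript GC content, VCL (48.9%) and TNS3 (54.5%), were lowest in control replicate 2. Among all tested genes TNS3 was not low in GC content, since 65.7% lay below it, against 45.5% below VCL. The correction described next moved TNS3 further down in that library, from -0.07 to -0.17 relative to its mean. In control replicate 2, 7 of the 10 members were highest, from TNS4 (56.8%), ACTN1 and TNS1 to PXN (59.5%), TNS2 (61.8%), FLNA (61.9%) and ZYX (63.2%). TLN1, whose 58.1% lies between TNS1 and PXN, was highest in control replicate 1. By its longest transcript ACTN1 had a GC content of 49.9%, so the order by GC content depends on the transcript used. A correction that fits each library to GC content and transcript length brought the SD within groups from 0.18 to 0.02 for ZYX, from 0.16 to 0.02 for FLNA, from 0.12 to 0.02 for PXN and from 0.08 to 0.02 for TNS4, in log2 units.

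The same correction widened other members. The SD within groups went from 0.03 to 0.13 for TLN1, from 0.01 to 0.10 for ACTN1 and from 0.05 to 0.12 for TNS3. The correction takes the median over the annotated transcripts of a gene, which is 674.5 bases for TLN1, 828 for ACTN1 and 965.5 for TNS3, where the longest transcripts have 8823, 4674 and 7618 bases. With the longest transcript in its place, an alternative chosen after these values were seen, the SDs of TLN1, ACTN1 and TNS3 were 0.06, 0.04 and 0.08, and that of TNS4 was 0.02. FLNA was then at 0.06. Over 11902 genes of at least 5 CPM the median SD was 0.089 and 0.083 under these corrections, against 0.15 over 11934 genes without one.

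The TNS4 values under both corrections follow as a description, since TNS4 was chosen on this contrast. After the first it stood at 424, 408 and 420 CPM in the control libraries and at 324, 320 and 324 CPM in the HRAS guide libraries, with a log2 fold change of -0.37 ± 0.04 and an interval of -0.46 to -0.28. After the second it was -0.36 ± 0.04. In edgeR with the first correction, TNS4 was the 1 member of 10 that passed the threshold over all genes (0.2% of 19489 genes passed, 0.19% lower and 0.0103% higher), and with the second again TNS4 alone (0.262%, of which 0.257% lower). This count is no independent evidence for TNS4. The passing ended without control replicate 3 (-0.37), HRAS guide replicate 1 (-0.37) or HRAS guide replicate 3 (-0.37) in the first corrected fit, where fewer libraries are tested. It also ended there with the replicate number as a block (-0.37). Among the 3 libraries whose GC trend was negative, 2 of them controls, the uncorrected TNS4 difference was -0.41. Among the 3 with a positive trend, 1 of them a control, it was -0.45. After the correction these were -0.40 and -0.33. Each of these differences rests on 1 library of 1 guide. GC content is not matched within the positive set, where the trend was 0.61 in control replicate 2. It was 0.27 and 0.06 in HRAS guide replicates 1 and 3.

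The plaque genes moved closer to 0 with the correction, to between -0.16 and -0.05. ZYX had the largest value of them, -0.16 ± 0.04, at 231, 228 and 227 CPM in control libraries, against 203, 209 and 203 CPM with the HRAS guide, and it did not overlap. PXN (-0.05 ± 0.04) and FLNA (-0.07 ± 0.04) did not overlap either, whereas TLN1 and ACTN1, which had been separate, now did. Non-overlap with the HRAS guide lower thus held for 4 of 10 members, TNS4, ZYX, PXN and FLNA, and for 6.25% of all genes. In the other direction it was 0 members and 5.98% of all genes. Corrected values were negative for 9 of 10 members and 50.1% of all genes. With the longest transcript, TNS4 and ZYX (-0.15 ± 0.04) were separate, against 6.45% of all genes, and PXN and FLNA overlapped. Which plaque gene was separate therefore changed with the correction. Split by the sign of that trend, negative then positive, the corrected ZYX values were -0.13 and -0.17. Those of VCL (-0.07 and 0.10), TLN1 (-0.11 and 0.06) and ACTN1 (-0.07 and 0.06) were of opposite sign. Each again rests on 1 library of 1 guide.

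**Figure D4:**
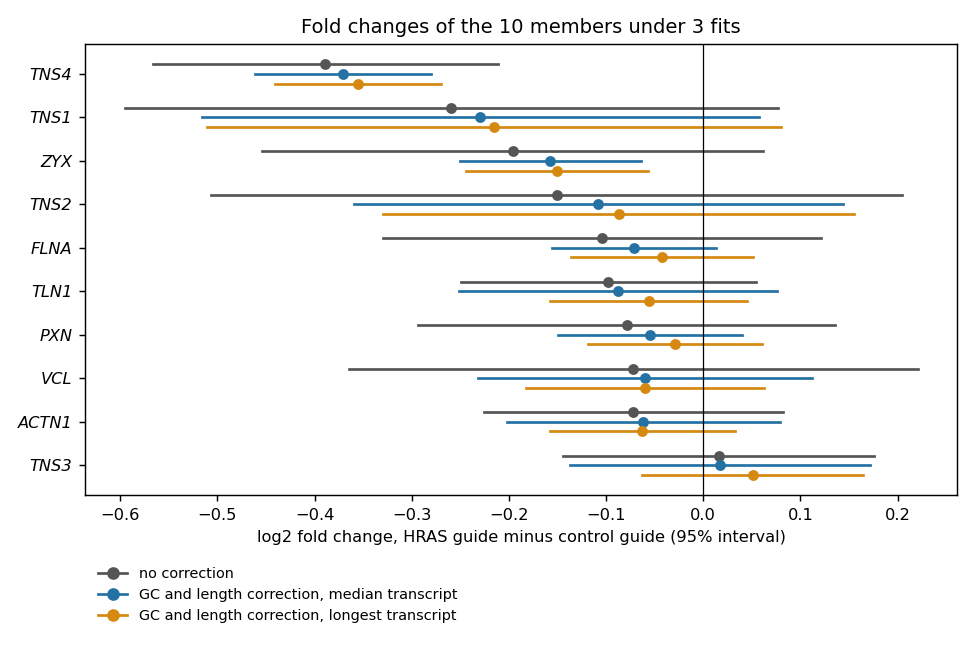
Log2 fold change (HRAS guide minus control guide) of each member with its 95% interval in the fit without correction (grey), with the GC and length correction on the median transcript (blue) and on the longest transcript (orange). TNS4 is at -0.39, -0.37 and -0.36, and TNS3 at 0.02, 0.02 and 0.05.

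**Figure D5:**
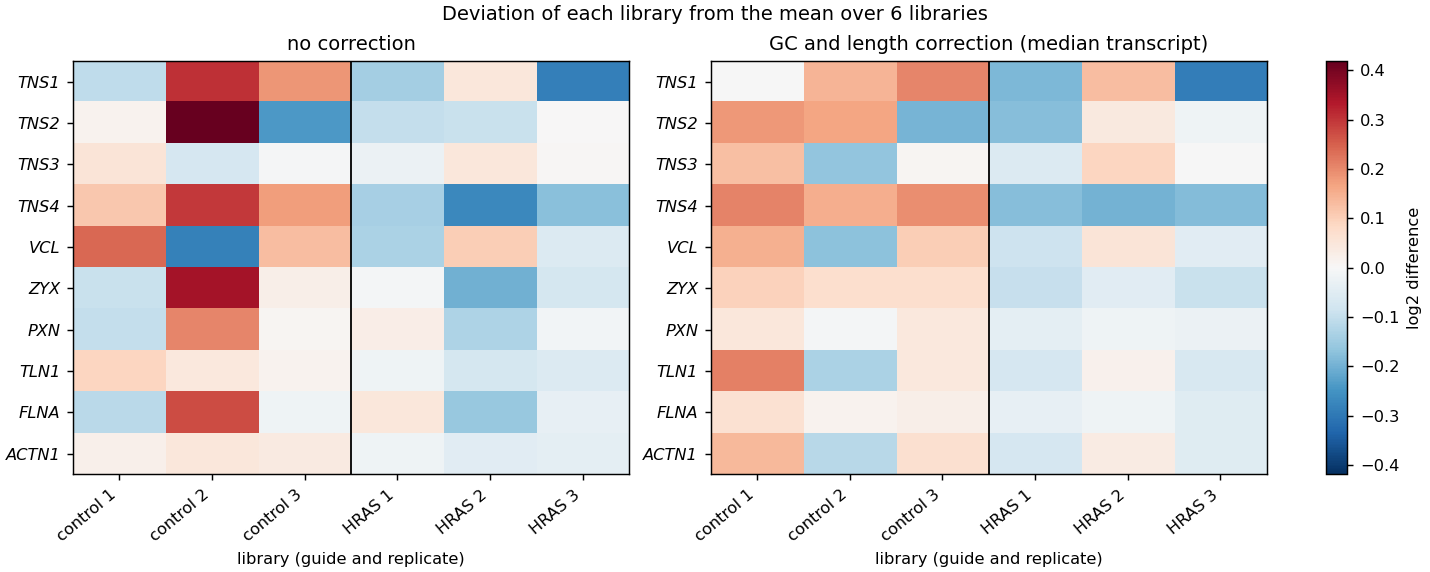
Deviation of log2 CPM from the mean over the 6 libraries for each member and library, without correction (left) and with the GC and length correction on the median transcript (right); red is above the mean and blue below. Without correction control replicate 2 is at 0.42 for TNS2, 0.35 for ZYX and -0.28 for VCL, while after it the TNS4 row is at 0.15 to 0.21 in control and -0.20 to -0.18 in HRAS guide libraries.

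Over the 6 libraries, the genes whose corrected log2 CPM followed TNS4 most closely were NR4A1, EGR1, FOSL1, JUN and DUSP5. Among 11902 genes of at least 5 CPM, Pearson's r with TNS4 was highest for NR4A1 (0.999), an orphan nuclear receptor, then EGR1 (0.997), a zinc finger transcription factor, the AP-1 subunits FOSL1 (0.997) and JUN (0.997), and DUSP5 (0.995), a phosphatase of ERK. FOSL1 stood at 147, 174 and 155 CPM in control libraries, against 111, 91.6 and 103 CPM with the HRAS guide. Without correction FOSL1, NR4A1, JUN and DUSP5 were highest and lowest in the same libraries as TNS4. These were control replicate 2 and HRAS guide replicate 2, the libraries with the highest and lowest GC trend (0.61 and -0.49). The members ACTN1, PXN, FLNA and ZYX had the same highest and lowest library. The part of GC content in this likeness was not tested. EGR1 was highest in control replicate 3. With 6 points that share 2 groups, any gene that is evenly lower in the HRAS guide libraries has an r near 1, so the value orders genes and is no test. Without correction the 5 closest were NR4A1, FOSL1, HBEGF, EPHA2 and IER3, and 2 of the 5 genes were shared. Of the other members, ZYX had an r of 0.971, FLNA 0.912, PXN 0.857, TNS1 0.601, TLN1 0.435, ACTN1 0.402, TNS2 0.313, VCL 0.309 and TNS3 -0.04 after correction. Without correction the order was another: ACTN1 had 0.988, TLN1 0.829, ZYX 0.779, TNS1 0.677, PXN 0.630, FLNA 0.628, TNS2 0.485, VCL -0.15 and TNS3 -0.50.

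The wider adhesion machinery was described by 115 further genes in 6 lists, of which 109 were tested. Of these 79 had negative and 30 positive log2 fold changes, where 50.5% of all tested genes were negative. Their median was -0.04. In edgeR, DESeq2 and limma-voom 0 passed (0.0101%, 0.144% and 0.00504% of all genes did). In edgeR 0 were at an unadjusted p under 0.05, against 3.34% of all genes. With library totals alone as scaling, 63 of the 109 were negative, so the share depends on the scaling, which moved the split by more than 10 points. That scaling moved all genes as well. The median of the lists went from -0.037 to -0.014, and that of all genes from -0.0014 to 0.0215. After the GC and length correction 74 of 109 were negative (50.1% of all genes) and 0 passed (0.2% of all genes). Without control replicate 2 that corrected fit called NEDD9 and CCN1, and 131 genes in all, 0.651% of those tested.

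Paralogues of the members, such as other filamins, actinins and zyxin relatives, were split. Of 13 tested, 8 were negative (50.5% of all genes), with a median of -0.01. After the correction 5 of 13 were negative (50.1% of all genes), with a median of 0.02. AJUBA, a LIM protein of the zyxin family, was at 229 ± 6.54 CPM in control libraries, against 250.2 ± 1.28 CPM with the HRAS guide (0.13 ± 0.07), the 1 of 109 list genes whose groups did not overlap with the HRAS guide higher (4.81% of all genes). With the HRAS guide lower there were 6 of 109 (4% of all genes). After the correction there were 2 higher and 11 lower, against 5.98% and 6.25% of all genes. LPXN, a paxillin relative, was at 0.22 ± 0.19. Genes of integrin activation and of the ILK complex had 6 of 14 negative and a median of 0.01. In that list KANK2, a talin-binding protein, was at 71.1 ± 4.71 and 61.6 ± 3.94 CPM (-0.21 ± 0.10) and did not overlap without the correction and did with it, and the kindlin gene FERMT3 was at -0.27 ± 0.19 from 9.17 CPM.

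FAK and SRC signalling genes had 16 of 23 negative, where 50.5% of all tested genes were, with a median of -0.06. The SRC family kinase FYN was at 37.3 ± 0.50 and 33.8 ± 0.79 CPM (-0.14 ± 0.09) and the scaffold NEDD9 at -0.13 ± 0.11. Actin regulators of adhesions had 23 of 27 negative and a median of -0.04, with the formin DIAPH1 at -0.07 ± 0.07. Cytoskeletal targets of SRF and its cofactors, a group to which VCL, ZYX, FLNA and ACTN1 are also commonly assigned, had 18 of 21 negative and a median of -0.05. Beta-actin, ACTB, was at 3585 ± 256 and 3322 ± 178 CPM (-0.11 ± 0.07), and the matricellular gene CCN1 at 98.8 ± 6.05 and 90.8 ± 0.69 CPM (-0.12 ± 0.08). Known binding partners of tensins had 10 of 13 negative and a median of -0.04, with DLC1 at -0.17 ± 0.12 and the integrin gene ITGB3, at 0.68 CPM with the control guide and with 51.6% of its exons shared with an overlapping gene, at 0.31 ± 0.29. In all 6 lists, 0 genes came as low as TNS4 at -0.39, and the lowest was -0.27. Since TNS4 was chosen on this contrast, nothing is read from that comparison.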

How the data were processed

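Deposited values were raw counts per Ensembl gene in a single table of 60664 rows, of which 1 row had no values and was left out. Per the submitters' processing notes, HISAT2, StringTie, DESeq2 and the hg38 build were used, without versions or roles. For the counting tool, annotation release and strandedness, nothing is given in the sources used here. Columns were matched to libraries by guide and replicate number. Gene names were looked up by identifier (60462 matched), and coordinates, lengths and GC content from GENCODE 29 on GRCh38, the assembly of hg38. Counts were filtered with filterByExpr, scaled by TMM and fitted with the quasi-likelihood test of edgeR 4.0.16 in R 4.3.3 on group alone, over all genes, with Benjamini-Hochberg adjustment. SE were recovered from the F statistic. The GC and length correction fits log2 CPM of each library (prior count 2) by robust regression on a spline of GC content (5 degrees of freedom) and one of log transcript length (4), and enters as offsets. DESeq2 1.42.0 and limma 3.58.1 (voom) served as alternatives. Scripts were tested on simulated data. Members, gene lists and alternatives were chosen with earlier results of these data known. Named are all members, HRAS, the 2 genes of smallest p in each list where none passed, and the 5 genes most like TNS4. One gene that this rule names is not reported here. PTPRC, CD14, COL1A1, AP3M1, PXN-AS1 and genes alike only without correction were named after their values were seen. A planned protein comparison was not run. Promoters came from RefSeq on GRCh38.p14.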

Additional observations from a re-analysis of the deposited data

How the results depend on the processing

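Across 23 alternatives TNS4 stayed between -0.43 and -0.34 and passed the threshold over all genes in 7 of them: no filter on low counts, both corrections, a covariate for the libraries sharing a GC trend sign, and 3 corrected fits with a library left out. Since TNS4 was chosen on this contrast, this count is no independent evidence for it. Of all genes, 0.2% and 0.262% passed with the corrections, and 0.651% in the corrected fit without control replicate 2. For the others the share was not computed. The fits do not all test the same number of genes. TNS4 against the other tensins and against the plaque kept its sign, from -0.31 to -0.19 and from -0.32 to -0.26. The number of genes called over the whole table was 2 in the fit without correction, 28 in DESeq2, 1 in limma-voom, 1 with DESeq2 size factors, 57 without a filter, 1 with at least 1 CPM in 3 libraries, 39 with the correction, 51 with the longest transcript and 81 with the covariate. Leaving out each library gave 1 to 24 genes (24 without control replicate 2), and after correction 36, 131 and 8 without control replicates 1 to 3 and 8, 17 and 7 when HRAS guide replicates 1, 2 and 3 were dropped. The cause was not tested. The replicate block called 1 gene, and 6 with the correction. Libraries of the same number did not deviate together (correlations of -0.19, -0.29 and -0.06). Each value rests on 1 pair of libraries, so it cannot show whether they share a culture or a day. The labels do not state it. With the replicate block TNS4 was at -0.39 and did not pass. VCL was positive in 2 alternatives, TNS2, PXN, TLN1 and FLNA in 1 each, and TNS3 negative in 4. The plaque median of -0.09 was -0.03 and -0.14 in the corrected fits without control replicates 1 and 2. With median transcript length the control level of TNS4 was 303 RPKM in place of 86.6. Of the 5 genes most like TNS4, 2 were shared without the correction. With 3 libraries a group, members near 10 CPM have intervals wider than the TNS4 difference.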
